A study of Mus musculus with 7 samples.

Results

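The growth hormone and IGF1 axis of the liver is described here through 10 genes: Ghr, Prlr, Stat5a, Stat5b, Igf1, Igfals, Igfbp2, Igfbp4, Socs2 and Cish. They were taken by gene symbol from the 22564 genes of the deposited mRNA table. Each symbol stood on 1 row, and all 10 genes passed the filter on low values that left 11861 genes for testing. The libraries came from livers of C57bl/6 mice given PBS, the vehicle buffer (n = 3), or PTH, parathyroid hormone (n = 4). The age, sex, dose and length of treatment, and the meaning of the letter C in the sample titles, are not given in the labels. Nothing in the labels says that the libraries came from separate animals, so each p-value measures the spread between these libraries, which may be technical. Levels are FPKM, fragment counts scaled for transcript length and library size, as deposited, and a library is named by its group and number.

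Pituitary growth hormone binds the receptor Ghr on hepatocytes, which activates the kinase JAK2 and then the transcription factors STAT5A and STAT5B. In liver, STAT5B drives Igf1, Igfals, Socs2 and Cish, and liver is the main source of the IGF1 in blood. Most circulating IGF1 travels with a binding protein and the acid labile subunit, and SOCS2 and CISH act back on the receptor as brakes. In mice the pattern of growth hormone release differs between the sexes and sets many sex-biased liver genes.

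The libraries held an estimated 1200679 to 2556680 reads in the PBS group and 1621719 to 3281512 in the PTH group. The library medians of log2(FPKM + 0.5) ran from 2.09 to 2.41 in PBS and from 2.64 to 2.96 in PTH, so the medians of the groups did not overlap. Over the 11861 tested genes the median log2 change from PBS to PTH was 0.55 as deposited and -0.02 when all libraries were given a common median. Changes of genes are therefore given below with their value relative to that common median. Over genes, log2 levels of 2 libraries correlated at 0.891 to 0.924 if both were PBS, at 0.875 to 0.945 if both were PTH, and otherwise at 0.799 to 0.889. Hepatocyte markers summed to between 36155 and 63601 FPKM in PBS and between 32061 and 52436 in PTH, and none of the 19 tested was at 0 in all libraries. By limma 7 of the 19 were called lower (36.8%, against 2.37% of all tested genes) and 0 higher (2 at an unadjusted p under 0.05). Relative to the common median 8 were lower (42.1%, against 5.25% of all tested genes). Neutrophil markers summed to 77.6 to 845 FPKM in PBS, with the highest value in PBS 1, and to 4.11 to 38.0 FPKM in PTH. Of 8 tested, 5 were called lower (62.5%, against 2.37% of all tested genes), and 2 to 4 with each library left out. Ly6g was at 0 in every library. The part of these markers in the results below was not tested.

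STAT5 dimers bind the palindrome TTCNNNGAA. Windows from 250 bases before to 50 bases after an annotated start site were read for 9 of the 10 genes (17 windows, RefSeq, GRCm38.p6). Socs2 had no window in the table used. The palindrome, which reads the same on both strands, stood in 4 windows of 3 genes. Of all 32851 windows, 2726 (8.30%) held it, and 150 (0.457%) held more than 1 copy. The 30 bases around each match are shown because they are the letters this pathway is known to read; capitals mark the arms of the palindrome, all on the plus strand. The Cish stretch lies at chr9:107296654-107296683, the Igfals stretches at chr17:24877598-24877627 and chr17:24878163-24878192, and the Prlr stretch at chr15:10223786-10223815.
Cish: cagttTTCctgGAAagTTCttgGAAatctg
Igfals, first window: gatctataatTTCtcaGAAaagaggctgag
Igfals, second window: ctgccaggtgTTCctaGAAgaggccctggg
Prlr: gcaaaatgagTTCtagGAAtaagggatatc
The Cish matches begin at positions 1 and 12 counted from the start site of the window. The Igfals matches begin at -236 and -58 and the Prlr match at -110, each from its own start site. All these start sites lie inside the gene spans printed below, not at their ends. A match is a run of letters and not a measured binding site, and a window without one says nothing of sites farther away.

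Of the 10 axis genes, Igf1 was the one that changed: its FPKM rose 1.91-fold in PTH livers on the log2(FPKM + 0.5) scale (limma, Benjamini-Hochberg adjusted p = 0.0354). The same call was made for 22.8% of all tested genes in the higher direction and for 2.37% in the lower direction, and no axis gene was called lower. Without adjustment, 2 axis genes had p under 0.05 in the higher direction (Igf1 and Socs2) and 0 in the lower. The share of all tested genes at that unadjusted threshold is not given here. It is at least the 22.8% higher and 2.37% lower that were called after adjustment. The log2 change was positive for 9 of the 10 genes as deposited, against 78.2% of all tested genes, and their median was 0.56 against 0.55. Relative to the common median it was positive for 5 of the 10, against 48.3% of all tested genes, and limma called 0 of them, with 0 at an unadjusted p under 0.05, against 3.25% of all genes called higher and 5.25% called lower. The share of axis genes that changed was thus not above that of all genes on either scale.

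**Figure D1:**
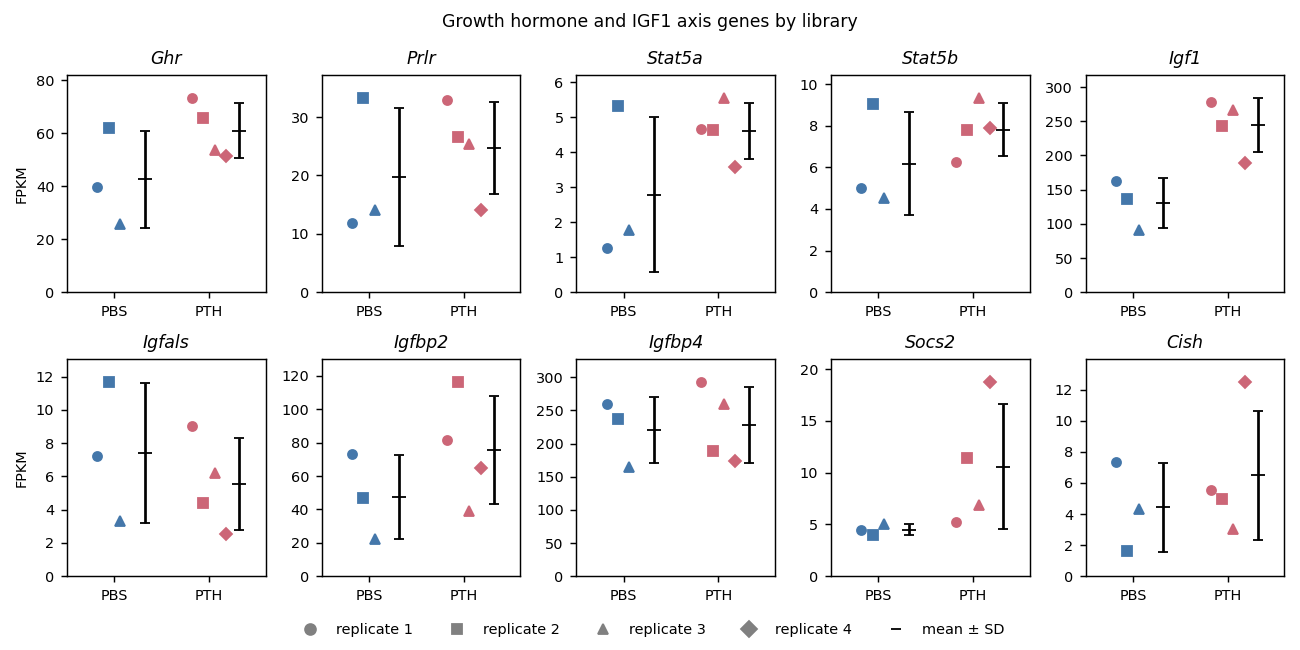
FPKM of the 10 axis genes in each of the 7 libraries, on linear axes. PBS and PTH libraries are separate points, with the mean and SD of each group beside them. For Igf1 the 4 PTH libraries lie at 189 to 278 FPKM and the 3 PBS libraries at 90.7 to 163, while for Igfbp4 and Prlr the groups overlap.

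Among the receptors, Ghr (ENSMUSG00000055737, GRCm38 chr15:3317760-3583492, minus strand) encodes the protein that binds growth hormone. Its level was 39.8, 62.1 and 25.9 FPKM in PBS 1 to 3 and 73.4, 65.8, 53.6 and 51.4 FPKM in PTH 1 to 4. PBS 2 lay within the PTH range and the groups overlapped. The means were 42.6 ± 18.3 (SD, n = 3) and 61.0 ± 10.4 (SD, n = 4), a log2 change of 0.59 (SE 0.31, 95% interval -0.10 to 1.27, limma adjusted p = 0.179), or 0.01 relative to the common median. Bulk libraries cannot tell apart fewer cells of a type and less RNA per cell, here or for any gene below.

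The deposited table also gives a scaled count per gene, and for Ghr it moved differently from the FPKM. The scaled counts of Ghr were 596, 849 and 325 in PBS and 729.8, 615, 518 and 469 in PTH, with means of 589.9 ± 262 (SD, n = 3) and 583 ± 115 (SD, n = 4). On that scale the log2 change of Ghr was 0.07, and relative to a common median of the scaled counts it was -0.54. The scaled count per FPKM of Ghr was 14.96, 13.7 and 12.5 in PBS and 9.94, 9.36, 9.67 and 9.13 in PTH, so every PBS library lay above every PTH library. The PBS mean of 13.7 ± 1.21 (SD, n = 3) was 1.44-fold the PTH mean of 9.52 ± 0.354 (SD, n = 4), with an exact two-sided permutation p = 0.0571, the smallest that 3 against 4 libraries allow. Lower scaled counts per FPKM in PTH, with no overlap and a difference of at least 1.2-fold, occurred in 0.933% of 11041 genes, and the comparison was added after the values were seen. The annotation (GENCODE M21) lists 5 coding transcripts of Ghr of 898 to 4175 bases. In mice a shorter spliced form of this gene is known to encode the soluble growth hormone binding protein. Which transcripts the libraries held was not tested.

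**Figure D2:**
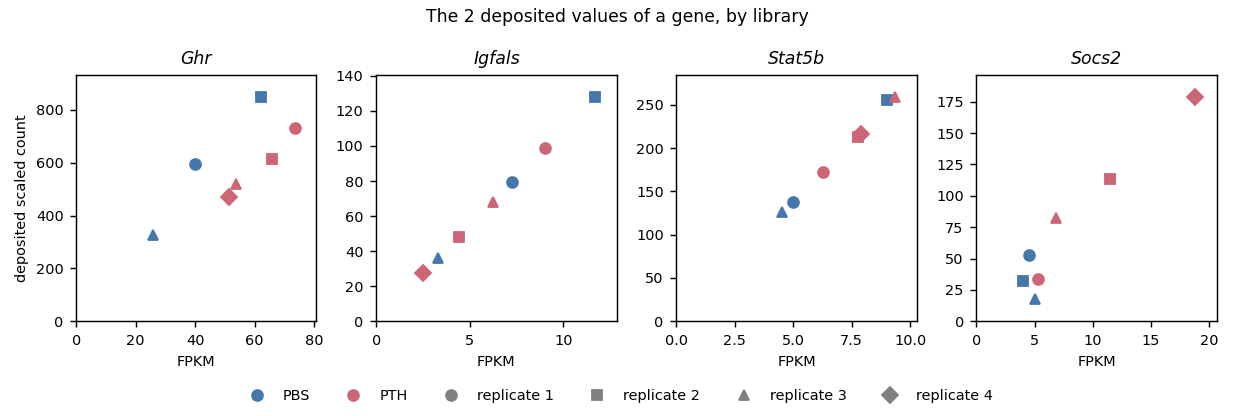
Deposited scaled count against FPKM in each library for Ghr, Igfals, Stat5b and Socs2, on linear axes. PBS and PTH libraries are separate points in different colours. For Ghr the scaled count per FPKM lies between 12.5 and 14.96 in PBS and between 9.13 and 9.94 in PTH. For Igfals it stays between 10.9 and 10.97 in all 7 libraries.

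Across the axis genes the ratio of scaled count to FPKM varied to very different degrees between libraries. Its highest value was 3.35 times its lowest for Socs2, 2.83 times for Cish, 2.59 times for Stat5a, 2.09 times for Prlr and 1.64 times for Ghr. It was 1.26 for Igfbp4, 1.23 for Igf1, 1.14 for Igfbp2, 1.03 for Stat5b and 1.01 for Igfals. Over 11041 genes the median of this spread was 1.24 and the upper quartile 1.74, so Socs2, Cish, Stat5a and Prlr lay above the upper quartile. The FPKM and the scaled count can therefore rank the libraries differently, for those 4 genes and also for others such as Ghr and Igf1.

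Prlr (ENSMUSG00000005268, chr15:10177238-10349180, plus strand) encodes the prolactin receptor, a relative of Ghr that also works through JAK2 and STAT5. Its level was 11.8, 33.3 and 14.1 FPKM in PBS and at 33.0, 26.7, 25.3 and 14.0 FPKM in PTH. The groups overlapped almost fully, with PBS 2 the highest of the 7 libraries. The means were 19.8 ± 11.8 (SD, n = 3) and 24.8 ± 7.89 (SD, n = 4), a log2 change of 0.40 (SE 0.39, limma adjusted p = 0.454) and -0.17 relative to the common median. The table lists its locus together with 2 other genes, Agxt2 and Gm21973.

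The signal transducers Stat5a and Stat5b were both low and variable. Stat5b (ENSMUSG00000020919, chr11:100780731-100850724, minus strand), the main growth hormone transducer of mouse liver, was at 4.998, 9.02 and 4.52 FPKM in PBS and at 6.26, 7.77, 9.34 and 7.88 FPKM in PTH. The groups overlapped, with means of 6.18 ± 2.47 (SD, n = 3) and 7.81 ± 1.26 (SD, n = 4) and a log2 change of 0.36 (SE 0.31, limma adjusted p = 0.389), or -0.21 relative to the common median. Stat5a (ENSMUSG00000004043, chr11:100859351-100885169, plus strand), known above all as the mammary transducer of prolactin, was at 1.27, 5.32 and 1.78 FPKM in PBS and at 4.66, 4.63, 5.55 and 3.58 FPKM in PTH. PBS 1 and PBS 3 lay below all PTH libraries and PBS 2 within them.

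The Stat5a means were 2.79 ± 2.20 (SD, n = 3) and 4.60 ± 0.806 (SD, n = 4), a log2 change of 0.82 (SE 0.41, limma adjusted p = 0.152) and 0.25 relative to the common median. Without PBS 2 the change was 1.33 and passed the threshold (limma adjusted p = 0.0380). Over all 17 alternatives the adjusted p of Stat5a ran from 0.0380 to 0.753. The alternatives changed the library scale, the filter, the pseudocount, the limma options, the values fitted or the libraries kept. These levels rest on an estimated 6 to 46 reads per PBS library and 36 to 61 per PTH library. The genes lie 8626 bases apart, and of the 3839 stretches of 50 bases in the main Stat5a transcript, 608 (15.8%) also occur in that of Stat5b. The sources used here do not say how such reads were assigned, and the table lists the Stat5a locus together with Stat3. The log2 ratio of Stat5a to Stat5b differed between the groups by 0.46 (exact permutation p = 0.114, adjusted over 4 ratios p = 0.229).

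Of the secreted products, Igf1 (ENSMUSG00000020053, chr10:87858265-87937042, plus strand) encodes the hormone through which much of growth hormone's action on growth is carried. It was at 163, 137 and 90.7 FPKM in PBS and at 278, 244, 267 and 189 FPKM in PTH. Every PTH library lay above every PBS library, which held for 32.9% of all tested genes. The means were 130.1 ± 36.6 (SD, n = 3) and 245 ± 39.7 (SD, n = 4), a log2 change of 0.93 (SE 0.29, 95% interval 0.31 to 1.56), with an exact two-sided permutation p = 0.0571, the smallest possible here. The scaled counts gave a change of 0.91 (limma adjusted p = 0.0227), and on that scale Igf1 was again the 1 axis gene that rose, where 31.3% of all tested genes did.

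Relative to the common median the Igf1 change was 0.36, the groups overlapped, and the call was lost (limma adjusted p = 0.318). Igf1 was called in 9 of 17 alternatives, with adjusted p from 0.0227 to 0.355. Most of these calls came from other filters, pseudocounts or limma options, where its log2 change stayed at 0.93 to 0.94. The call was also lost with quantile normalization and on scaled counts with a common median. The alternatives are thus not independent checks. The call held without PBS 1 or PTH 4 and was lost without any 1 of the other 5 libraries, where the log2 change was 0.70 to 0.99 and the adjusted p 0.0543 to 0.129. The smallest change, 0.70, was that without PBS 3, the library with the fewest reads. Macrophages also make Igf1, and markers of Kupffer cells and macrophages summed to 262 to 373 FPKM in PBS and at 157 to 254 FPKM in PTH. Of these 14 tested markers, 8 were called lower (57.1%, against 2.37% of all tested genes) and 1 higher, and none of the 14 was at 0 in every library. Genes that respond to tissue handling summed to 387 to 1374 FPKM in PBS and at 145 to 220.2 FPKM in PTH, with 7 of 14 called lower (50%, against 2.37%) and 0 called higher by limma (0 higher at an unadjusted p under 0.05). Igf1 is also a product of hepatocytes, 7 of whose 19 markers were called lower, as given above. The 7 were Fgb, Fga, Fgg, Ambp, Hpx, Tat and Pck1. With each library left out in turn, 3 to 7 of the hepatocyte markers were called lower. Of the 19, 8 had a positive log2 change, against 78.2% of all tested genes. The part of these lists in the Igf1 result was not tested.

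Igfals (ENSMUSG00000046070, chr17:24865997-24882010, plus strand) encodes the acid labile subunit, which keeps IGF1 in the blood as part of a ternary complex. It was at 7.24, 11.7 and 3.30 FPKM in PBS and at 9.03, 4.42, 6.23 and 2.51 FPKM in PTH. The groups overlapped, PTH 4 was the lowest and PBS 2 the highest. The means were 7.41 ± 4.19 (SD, n = 3) and 5.55 ± 2.77 (SD, n = 4). Igfals was the one axis gene with a negative log2 change, -0.35 (SE 0.46, 95% interval -1.37 to 0.66, limma adjusted p = 0.582), which was -0.93 relative to the common median and 0.03 without PBS 2.

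Within libraries, Igfals and Igf1 moved apart. The log2 ratio of Igfals to Igf1 was -4.40, -3.49 and -4.58 in PBS and -4.87, -5.63, -5.31 and -5.98 in PTH. Every PTH library had a lower ratio than every PBS library, and such a shift against Igf1 occurred in 23.5% of all tested genes. The difference was -1.29 (exact two-sided permutation p = 0.0571, adjusted over 4 ratios p = 0.229), and it ran from -1.50 to -0.96 when each library was left out in turn. A ratio within a library shows unequal change and not which gene moved.

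Igfbp2 (ENSMUSG00000039323, chr1:72824503-72852474, plus strand), a binding protein whose liver mRNA is known to fall when growth hormone acts, was at 72.9, 46.8 and 22.3 FPKM in PBS and at 81.7, 116, 39.3 and 65.0 FPKM in PTH. The groups overlapped and differed up to several fold among themselves. The means were 47.3 ± 25.3 (SD, n = 3) and 75.6 ± 32.3 (SD, n = 4), a log2 change of 0.72 (SE 0.43, limma adjusted p = 0.229) and 0.15 relative to the common median. Its listed locus spans 610090 bases, against 27972 in the annotation, and is shared with 6 other genes, Igfbp5 among them. The log2 ratio of Igf1 to Igfbp2 was 1.56 ± 0.42 in PBS (SD, n = 3) and 1.78 ± 0.71 in PTH (SD, n = 4), an exact permutation p = 0.8, so the pair differed by less than the spread between libraries.

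Igfbp4 (ENSMUSG00000017493, chr11:99041244-99054392, plus strand) encodes a binding protein that restrains IGF1 and was the most abundant axis gene in PBS livers. It was at 259.8, 237 and 164 FPKM in PBS and at 293, 188, 259.6 and 173 FPKM in PTH, and the groups overlapped. The means were 220.3 ± 49.99 (SD, n = 3) and 229 ± 57.1 (SD, n = 4), a log2 change of 0.05 (SE 0.29, limma adjusted p = 0.915). The direction turned to -0.53 relative to the common median, and it ran from -0.15 to 0.18 when each library was left out.

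**Figure D3:**
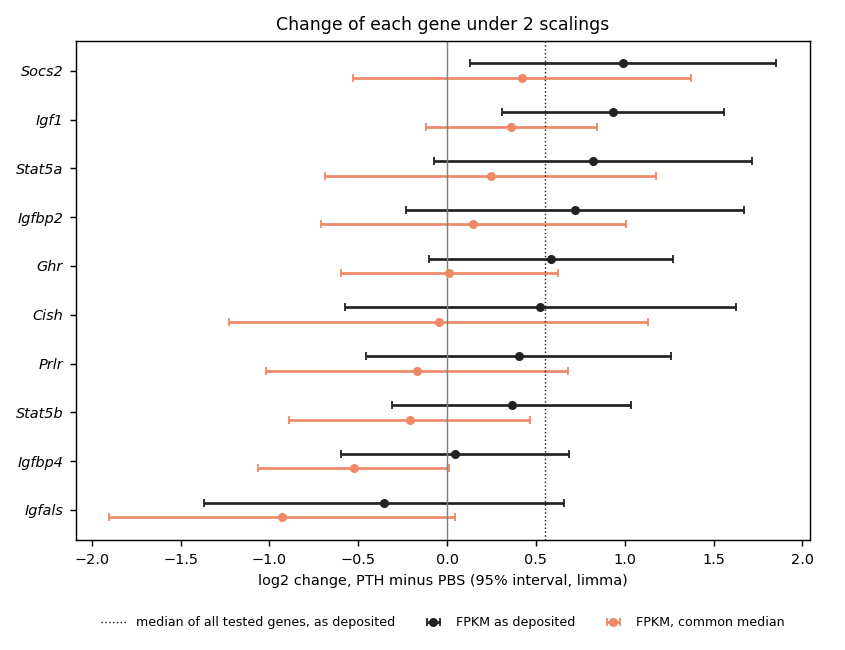
Log2 change from PBS to PTH of each axis gene with its 95% interval, as deposited and relative to the common median of the libraries. The interval of Igf1 runs from 0.31 to 1.56 as deposited and from -0.12 to 0.84 relative to the common median.

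The make-up of the binding protein mRNAs differed between the groups. Igfbp1, an insulin-repressed and fasting-induced binding protein, fell from 532, 461 and 331 FPKM in PBS to 44.8, 32.2, 87.2 and 32.3 FPKM in PTH. Its means of 442 ± 102 (SD, n = 3) and 49.1 ± 26.0 (SD, n = 4) gave a log2 change of -3.26 (SE 0.36, limma adjusted p = 0.00145), or -3.83 relative to the common median. The shares and ratios that follow were added after these values were seen.

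Igfbp1 made up 59.0%, 59.6% and 60.2% of the summed FPKM of Igfbp1 to Igfbp7 in PBS and 9.52%, 8.22%, 20.03% and 9.76% in PTH. The share of Igfbp4 was 28.8%, 30.6% and 29.8% in PBS and 62.4%, 48.1%, 59.7% and 52.3% in PTH. That of Igfbp2 was 8.09%, 6.04% and 4.06% in PBS and 17.4%, 29.7%, 9.03% and 19.6% in PTH. For all 3 shares the groups did not overlap, each with an exact permutation p = 0.0571, or 0.08 adjusted over the 7 proteins. Since shares sum to a whole, a smaller Igfbp1 share makes the others larger with no change in their own level.

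The summed FPKM of the 7 binding proteins was 742 ± 178 in PBS (SD, n = 3) and 407 ± 59.7 in PTH (SD, n = 4). Without Igfbp1 the sums were 300.2 ± 75.9 (SD, n = 3) and 358 ± 51.9 (SD, n = 4), which differed by less than the spread between libraries (exact permutation p = 0.4). Igf1 per 100 FPKM of the 7 binding proteins was 18.1, 17.7 and 16.5 in PBS and 59.2, 62.1, 61.3 and 57.1 in PTH. These values varied little within a group, and the PTH mean of 59.95 ± 2.27 (SD, n = 4) was 3.45-fold the PBS mean of 17.4 ± 0.833 (SD, n = 3). A higher ratio to that sum, with no overlap, occurred in 69.9% of all tested genes. Against the sum without Igfbp1, Igf1 was at 43.1 ± 1.47 per 100 FPKM in PBS (SD, n = 3) and 68.3 ± 5.90 in PTH (SD, n = 4). This was 1.59-fold higher without overlap (exact permutation p = 0.0571), as in 16.8% of all tested genes.

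**Figure D4:**
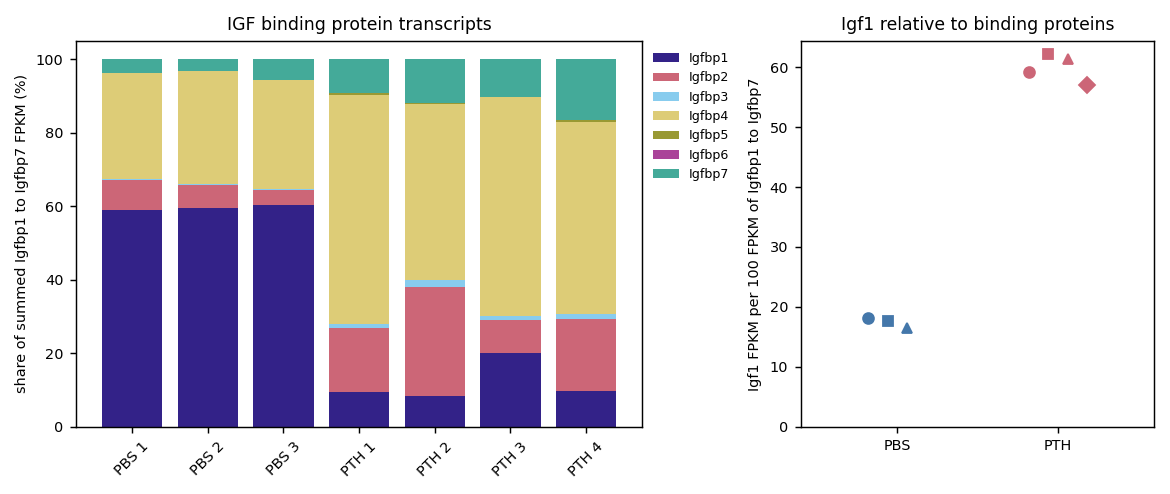
Shares of the summed FPKM of Igfbp1 to Igfbp7 in each library, in percent, and Igf1 per 100 FPKM of the same sum. Igfbp1 makes up 59.0% to 60.2% of the sum in the PBS libraries and 8.22% to 20.03% in the PTH libraries, and Igf1 lies at 16.5 to 18.1 and 57.1 to 62.1 per 100 FPKM.

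The brakes of the pathway were low. Socs2 (ENSMUSG00000020027, chr10:95385362-95417180, minus strand) encodes the suppressor whose loss in mice gives oversized animals. It was at 4.49, 4.005 and 5.05 FPKM in PBS and at 5.26, 11.4, 6.86 and 18.8 FPKM in PTH. By FPKM the groups did not overlap, as for 32.9% of all tested genes in this direction, though PTH 1 lay close to PBS 3. The means were 4.51 ± 0.522 (SD, n = 3) and 10.6 ± 6.06 (SD, n = 4), so the PTH libraries varied far more. The log2 change was 0.99 (SE 0.39, 95% interval 0.13 to 1.85), which did not pass the threshold (limma adjusted p = 0.0819, exact permutation p = 0.0571).

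The Socs2 change was 0.42 relative to the common median. Without PTH 1 it was 1.25 and passed the threshold (limma adjusted p = 0.0268), and over 17 alternatives the adjusted p ran from 0.0268 to 0.577. The scaled counts of Socs2 were 53.0, 31.99 and 18.1 in PBS and 33.7, 114, 82.1 and 179 in PTH. On that scale PTH 1 lay below PBS 1, so the groups overlapped. The estimated reads were 40, 19 and 8 in PBS and 30, 106, 65 and 104 in PTH, which limits the precision. The log2 ratio of Socs2 to Ghr differed by 0.41 (exact permutation p = 0.571, adjusted over 4 ratios p = 0.762), and by 1.27 on the scaled counts.

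Cish (ENSMUSG00000032578, chr9:107296026-107302784, plus strand), an early STAT5 target that blocks the receptor's docking sites and whose window holds 2 of the palindromes shown above, was at 7.32, 1.64 and 4.32 FPKM in PBS and at 5.52, 4.95, 3.01 and 12.5 FPKM in PTH. The groups overlapped, with PBS 2 the lowest and PTH 4 the highest. The means were 4.43 ± 2.85 (SD, n = 3) and 6.49 ± 4.14 (SD, n = 4), a log2 change of 0.53 (SE 0.50, limma adjusted p = 0.447), or -0.05 relative to the common median. Socs2 and Cish were both highest in PTH 4, the library in which 6 of the 10 axis genes had their lowest PTH value.

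By mean FPKM, which is per length, the order in PBS was Igfbp4, Igf1, Igfbp2, Ghr, Prlr, Igfals, Stat5b, Socs2, Cish and Stat5a. In PTH it was Igf1, Igfbp4, Igfbp2, Ghr, Prlr, Socs2, Stat5b, Cish, Igfals and Stat5a. In PBS, neighbours were separate in every library for Igfbp4 over Igf1, Igf1 over Igfbp2 and Prlr over Igfals. In PTH they were separate for Igfbp4 over Igfbp2 and Ghr over Prlr, and the other neighbours overlapped. PBS 3, which had the fewest reads, held the lowest of the 7 values for 5 of the 10 genes.

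The wider pathway was read from lists chosen by role. Of 33 tested genes of the JAK-STAT relay and its brakes, 5 rose (Socs4, Ptpn11, Sos1, Sh2b2 and Pias1) and 2 fell (Ptpn6 and Csf2rb), and their median log2 change was 0.55, that of all genes. The 15.2% that rose was below the 22.8% of all tested genes, and the 6.06% that fell compares with 2.37%. Pias1, which restrains STAT factors, was at 2.87 ± 0.939 FPKM in PBS and at 7.73 ± 1.78 in PTH (SD, n = 3 and 4; log2 change 1.30, limma adjusted p = 0.0160), and its change was 0.73 relative to the common median. Csf2rb, a receptor subunit of myeloid cells, fell by 1.13 on the log2 scale (limma adjusted p = 0.0328) and by 1.70 relative to the common median. Sos1, a RAS activator, had a log2 change of 0.97 (limma adjusted p = 0.0257) and Socs4, a relative of Socs2, one of 1.18 (limma adjusted p = 0.0262), which were 0.40 and 0.61 relative to the common median. The calls of Pias1, Sos1 and Socs4 were lost on that scale. With 1 library left out the limma adjusted p reached 0.0585 for Pias1 (call lost without PBS 2 or PTH 2), 0.0746 for Sos1 (call held without PBS 1, PTH 1 or PTH 4), 0.0812 for Socs4 (call held without PTH 1 or PTH 4) and 0.106 for Csf2rb (call held without PBS 2 or PTH 1).

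Relative to the common median 0 of the 33 relay genes rose by limma (1 at an unadjusted p under 0.05), against 3.25% of all genes. On that scale 3 fell, Jak3, Ptpn6 and Csf2rb (9.09%, against 5.25% of all genes). The count of rises was 0 without PBS 2 or PTH 2, 1 without PBS 3, 2 without PTH 3, 3 without PTH 4 and 8 without PTH 1. The count of falls was 0 without PBS 1, PBS 3, PTH 2, PTH 3 or PTH 4 and 1 without PBS 2. Jak2, the kinase of both receptors, was at 4.30 ± 1.90 FPKM in PBS (SD, n = 3) and 7.39 ± 1.26 in PTH (SD, n = 4), a log2 change of 0.79 (limma adjusted p = 0.102) and 0.21 relative to the common median.

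Of 10 tested genes for other IGF ligands, receptors, binding proteins and proteases, 2 rose (Igf2r and Irs1) and 1 fell, Igfbp1, with a median log2 change of 0.60. The 20% that rose was near the 22.8% of all tested genes. Irs1, the docking protein of the insulin and IGF1 receptors, was at 2.25 ± 0.843 FPKM in PBS (SD, n = 3) and 9.15 ± 2.44 in PTH (SD, n = 4). Its log2 change of 1.82 (SE 0.32, limma adjusted p = 0.00572) was called in all 17 alternatives and was 1.25 relative to the common median, with adjusted p from 6.2e-04 to 0.0318. Igf2r, the receptor that clears IGF2, rose from 6.22 ± 1.07 (SD, n = 3) to 13.6 ± 2.82 FPKM (SD, n = 4), a log2 change of 1.06 (limma adjusted p = 0.0203). It was 0.48 relative to the common median, where the call was lost (limma adjusted p = 0.250). It was lost too without PBS 2, PTH 2 or PTH 3, each of which left 1 rise in the list, and it held in 10 of 17 alternatives, with adjusted p from 0.00466 to 0.272. Igfbp7 was at 29.6 ± 3.98 (SD, n = 3) and 47.5 ± 5.37 FPKM (SD, n = 4) and did not pass the threshold (limma adjusted p = 0.0602). The listed loci of Irs1, Igf2r and Igfbp7 are each shared with 1 other gene. Igf1r was at 1.28 ± 0.696 FPKM in PBS (SD, n = 3) and 1.02 ± 0.333 in PTH (SD, n = 4).

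Sex-biased liver genes are the best known readout of the growth hormone pattern. Of 27 tested genes that are male-biased in mice, 11 (40.7%) rose and 3 (11.1%) fell, against 22.8% and 2.37% of all tested genes, with a median log2 change of 1.04. The rises were Mup1, Mup2, Mup3, Mup7, Mup21, Cyp2d9, Cyp4a12a, Cyp4a12b, Ugt2b1, Ugt2b38 and Gstp1, most of them major urinary proteins and cytochrome P450 or conjugating enzymes. Relative to the common median 5 rose (18.5%, against 3.25% of all genes), Mup1, Mup3, Mup7, Cyp4a12b and Ugt2b38, and the median was 0.47. On that scale C6, Nudt7 and Egfr fell (11.1%, against 5.25% of all genes). Mup and Cyp4a12 genes have near-identical copies between which the counting could split reads, so their single values are uncertain and they are not independent of each other. Without PBS 3 the count of rises was 7. The count of falls was 1 without PBS 1, PBS 2, PTH 2 or PTH 3 and 5 without PTH 1.

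Mup3 was at 599.8, 1041 and 524 FPKM in PBS and at 2971, 2918, 2906 and 2262 FPKM in PTH, a log2 change of 1.99 (SE 0.30, limma adjusted p = 0.00372) and 1.42 relative to the common median. Mup7 was at 113, 97.0 and 39.0 FPKM in PBS and at 803, 802, 336 and 881 FPKM in PTH, a log2 change of 3.12 (SE 0.43, limma adjusted p = 0.00309) and 2.55 relative to the common median. For both, every PTH library lay above every PBS library, as for 32.9% of all tested genes. Mup1 and Cyp4a12b were low but rose too, by 2.37 and 2.50 on the log2 scale (limma adjusted p = 0.00344 and 0.00520), or 1.79 and 1.92 relative to the common median. The 3 male-biased genes that fell were C6, a complement factor, Nudt7, a peroxisomal hydrolase, and Egfr, the epidermal growth factor receptor. Egfr fell from 224 ± 80.8 (SD, n = 3) to 82.8 ± 5.79 FPKM (SD, n = 4), a log2 change of -1.36 (limma adjusted p = 0.0104) and -1.94 relative to the common median.

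Of 18 tested female-biased genes, 6 (33.3%) rose and 0 fell by limma (0 fell at an unadjusted p under 0.05), against 22.8% and 2.37% of all tested genes, with a median log2 change of 0.94. They were Cyp2a4, Fmo2, Trim24, Rtn4, Tox and Cbr1, so rises occurred in the lists of both sexes. Relative to the common median 1 rose (Cbr1) and 1 fell (Gas6), each 5.56% of the list, against 3.25% and 5.25% of all tested genes. Cbr1, a carbonyl reductase, was at 17.8 ± 4.49 FPKM in PBS (SD, n = 3) and 60.4 ± 25.0 in PTH (SD, n = 4), a log2 change of 1.67 (limma adjusted p = 0.00905) and 1.097 relative to the common median. Cyp2a4, a steroid hydroxylase, was at 0.453, 0.192 and 0 FPKM in PBS and at 9.78, 10.6, 1.16 and 1.57 FPKM in PTH, so PTH 1 and PTH 2 carried most of its log2 change of 2.69 (limma adjusted p = 0.0174). It was 2.11 relative to the common median, where the call was lost (limma adjusted p = 0.0716, over 17 alternatives 0.0149 to 0.0716). Trim24 and Rtn4 had log2 changes of 1.19 and 1.41 (limma adjusted p = 0.0175 and 0.0168), and 0.62 and 0.84 relative to the common median, where both calls were lost. They were lost too without PBS 2 or PTH 2, and that of Cyp2a4 without PBS 3 or PTH 2, with limma adjusted p of up to 0.0609, 0.0601 and 0.0584. Another 6 genes of the female-biased list, Cyp2b13, Cyp3a41a, Sult2a1, Sult2a2, Sult3a1 and Hao2, were listed at 0 in all 7 libraries. The count of rises was 2 without PBS 2 and 1 without PTH 2.

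Of 28 tested genes known as direct or early targets of growth hormone and STAT5, 5 rose (Odc1, Ccne1, Irf1, Cidec and Bcl2l1) and 3 fell (Serpina3n, Egfr and Lpin1), with a median log2 change of -0.05 against 0.55 for all genes. The 17.9% that rose was below the 22.8% of all tested genes, and the 10.7% that fell was above the 2.37%. Odc1, the rate-limiting enzyme of polyamine synthesis, rose from 8.85 ± 4.18 (SD, n = 3) to 64.7 ± 22.6 FPKM (SD, n = 4), a log2 change of 2.86 (limma adjusted p = 0.00304) and 2.28 relative to the common median. Cidec, a lipid droplet protein, was at 1.48, 0 and 2.53 FPKM in PBS and at 6.18, 30.5, 10.5 and 16.0 FPKM in PTH (log2 change 3.27, limma adjusted p = 0.00729), with 2.70 relative to the common median.

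Serpina3n, a protease inhibitor of the acute phase, fell from 1337 ± 346 (SD, n = 3) to 305 ± 91.7 FPKM (SD, n = 4), a log2 change of -2.14 (limma adjusted p = 0.00350) and -2.71 relative to the common median. Lpin1, a phosphatidate phosphatase, fell from 52.7 ± 32.8 (SD, n = 3) to 7.63 ± 2.19 FPKM (SD, n = 4), a log2 change of -2.59 (limma adjusted p = 0.00344) and -3.16 relative to the common median. These 4 targets kept their calls in all 17 alternatives. The target genes thus went both ways, as did all tested genes. Relative to the common median 2 rose (Odc1 and Cidec, 7.14% against 3.25% of all tested genes). On that scale 3 fell (10.7% against 5.25%), and the median was -0.62 against -0.02 for all tested genes. The count of rises was 2 without PTH 2 and 3 without PBS 1, PBS 2, PBS 3, PTH 3 or PTH 4. Egfr and Bcl6 stand in both the male-biased and the target list, and Cd36 in the female-biased and the target list.

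**Figure D5:**
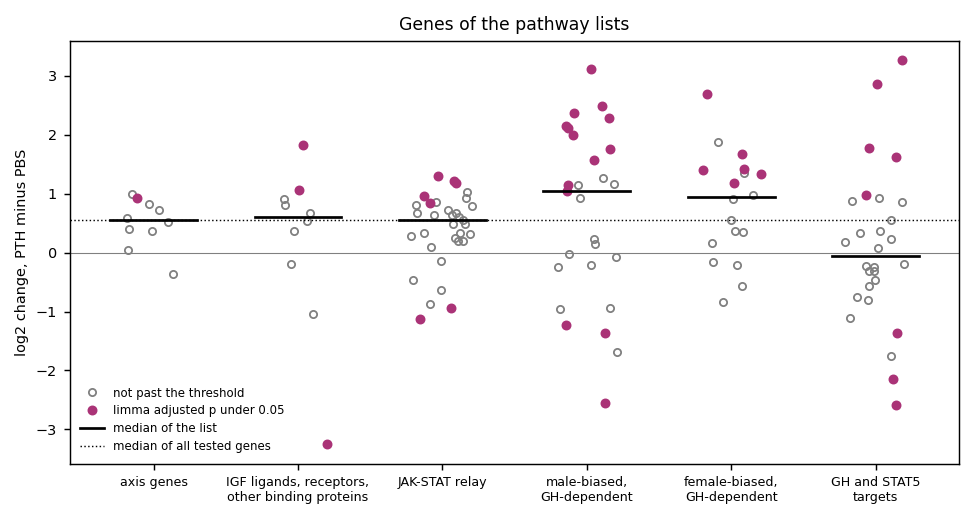
Log2 change from PBS to PTH of each tested gene in the axis and the 5 lists around it, with the median of each list and of all tested genes. The male-biased genes have the highest median, 1.04, and the STAT5 targets the lowest, -0.05, beside 0.55 for all tested genes.

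The profiles most like those of 3 axis genes were found by the root mean square difference of mean-centred log2 levels over the 7 libraries. For Igf1 they included Suds3 and Mapk3, at 0.0907 and 0.0949, where the median gene was at 0.527. For Ghr they were Ptms, Tbkbp1 and Trappc12, at 0.0851, 0.110 and 0.112, with a median of 0.568. For Socs2 they were Zc3hc1, Aak1 and Cdc23, at 0.162, 0.168 and 0.185, with a median of 0.755. With 7 libraries and 11861 genes, likeness of this kind is a description.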

How the data were processed

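RNA of mouse liver was sequenced in 7 libraries, which the treatment label puts into groups. The table the authors deposited gives, per the file headers, FPKM values and counts for every gene. Bowtie 0.12.2 and mm8 are named in the submitters' processing notes, and the sources used here do not name the quantifier. The listed positions match GRCm38: GENCODE M21 holds 21839 of the genes (96.8%), for 95.0% of which the listed locus covers the annotated gene to within 5000 bases, and M21 coordinates are printed. The count columns the authors deposited are a scaled signal: values are multiples of a step that differs between libraries, but not closely enough for a count test. Totals divided by the step gave the estimated reads.

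Genes that reached 0.5 FPKM in 3 or more libraries were fitted as log2(FPKM + 0.5) in R 4.3.3 by limma 3.58.1, using eBayes with both trend and robust options, Benjamini-Hochberg adjustment over all tested genes and a two-sided threshold of 0.05. Folds on this scale understate changes of low genes. Scaled counts were fitted the same way with 5 as pseudocount and minimum. Exact two-sided permutation tests over 35 splits used SciPy 1.17.1 and Python 3.11.15, and figures matplotlib 3.10.9. The scripts were tested on simulated data. The axis genes and gene lists were chosen with earlier results of these data known. Named were all axis genes, the 4 smallest p in each of 5 lists among genes with a mean of at least 1 FPKM in a group, and the 3 nearest profiles of Ghr, Igf1 and Socs2; other genes were named after their values were seen, mostly to spell out a count. Some genes of the lists and of this rule are not reported here.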

Additional observations from a re-analysis of the deposited data

Results flagged for a closer look

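In the PTH group of 4, 1 library stood apart by Dixon's gap ratio (the gap to the nearest library over the whole range, critical value 0.829) for 3 of the 43 genes checked, and chance alone flags about 1 in 20. For Mup7 the ratio was 0.855, with PTH 3 low at 336 FPKM. For Mup3 it was 0.909, with PTH 4 low at 2262 FPKM. For Suds3 it was 0.873, with PTH 4 at 13.2 FPKM and the others at 19.3 to 20.2.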

How the results depend on the processing

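The scale of the libraries moved the counts most. All tested genes gave 2709 rises and 281 falls as deposited, 385 and 623 with a common median, 467 and 510 with quantile normalization, 3740 and 311 on scaled counts, 518 and 820 on scaled counts with a common median, and 998 to 2734 rises and 122 to 437 falls with each library left out. The samples share only a number: same-numbered libraries deviated with correlations of -0.0306, -0.156 and 0.0103, and the replicate block gave 1583 rises and 181 falls, with Igf1 called as before. Of the 10 axis genes, 1 rose as deposited, 0 to 1 with each library left out, and 2 at an adjusted p of 0.1. The share of all tested genes at 0.1 is not given here, but it includes the 22.8% called higher at 0.05. With a common median, with quantile normalization or on scaled counts with a common median, 0 axis genes rose. By limma 0 fell in any of these. At an unadjusted p under 0.05 the scaled counts with a common median gave 2 falls, Igfals and Igfbp4 (limma adjusted p = 0.149 and 0.151). The number of all tested genes at that unadjusted threshold is not given here, but it includes the 820 called lower. Directions turned for Ghr to -0.54 (scaled counts, common median), for Igfbp4 to -0.53, -0.23 and -0.49 (common median, quantile, scaled counts with common median), for Stat5b to -0.21, -0.22 and -0.24 and for Prlr to -0.17, -0.13 and -0.12 likewise, and for Cish to -0.0474 and -0.0007 (common median, quantile). With each library left out Igfals ran from -0.81 to 0.0341 and Igfbp4 from -0.15 to 0.18. Tbkbp1 turned to -0.14 and -0.19 (common median, scaled counts with common median), and Trappc12 to -0.10, -0.0635 and -0.078. Of 646 comparisons over 38 genes, 554 kept direction and side of the threshold, 60 lost and 11 gained the call, and 21 reversed; the cause was not tested. Of the ratios of axis genes, Socs2 to Ghr moved from 0.41 to 1.27 on scaled counts, by more than its PBS SD of 0.77, and Igf1 to Igfbp2 ran from -0.11 to 0.45 with each library left out. The rise of Igf1 per 100 FPKM of binding proteins was 42.6, 60.2 on scaled counts and 25.2 without Igfbp1. Depth limits Stat5a, Socs2, Cish and Igfals, which held 6 to 16 estimated reads in PBS 3.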
